A study of Drosophila melanogaster with 19 samples.

Results

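Cells depleted of mip120 were set directly against cells depleted of mip130, both of which are subunits of the dREAM complex, in the Drosophila line S2R+. The comparison rests on 4 RNA libraries, 2 of mip120 RNAi and 2 of mip130 RNAi, out of 9 RNA libraries and 19 samples in the series, and they were taken by the gene that the labels give as the dsRNA target. The mip120 group was soaked in dsRNA against mip120 and the mip130 group in dsRNA against mip130, while further libraries had dsRNA against mip40 (2), E2F2 (1) or GFP (2), a sequence that fly cells lack and the control. All groups shared the same cell line, 4 days of treatment at 25 °C, a start at 30 µg/ml dsRNA without serum and a later dilution to 10 µg/ml in medium with 10% serum. The line is of embryonic origin and resembles blood cells, the treatment lowers an mRNA without removing the gene, and RNA came from whole cultures. Whether the 2 libraries of a group are separate cultures is not in the labels, and a p-value here can speak only for the spread among these libraries, possibly a technical one.

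The dREAM complex joins the RBF retinoblastoma proteins, E2F2 with its partner Dp, and Myb with a core of Myb-interacting proteins. It is known mainly as a repressor, and in fly cell lines it keeps developmental and germline genes silent. Mip120 is the fly counterpart of LIN54, a protein with cysteine-rich domains that bind DNA, and mip130 is the counterpart of LIN9, a scaffold protein of the core. Losing one core subunit often destabilises the others at the protein level, and the direct comparison asks which genes differ between the loss of one and that of the other.

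Levels are in FPKM, fragment numbers divided by transcript length and library total, which the authors deposited per transcript and which were summed per gene here. Read counts do not come with FPKM, so depth is unknown. Differences are in log2(FPKM + 1), mip120 RNAi minus mip130 RNAi, with the SE of the model, and adjusted p-values are from limma with Benjamini-Hochberg adjustment over all 7835 genes tested. The FPKM of all annotated transcripts summed to 588531 and 604025 in the mip120 libraries and to 632679 and 641635 in the mip130 libraries. A single unannotated transcript on XHet took 3.78% and 2.52% of all FPKM in the mip120 libraries, 7.39% and 16.1% in the mip130 libraries and 12.8% and 3.67% in the GFP libraries, and its part in the scaling of other genes was not tested. Of the blood cell markers, the GATA factor srp stood at 83.0 to 94.9 FPKM in mip120 RNAi and at 78.7 to 83.4 in mip130 RNAi, and the scavenger receptor crq at 149 to 160 and at 177 to 190. The plasmatocyte markers Hml and nimC1 were below 1 FPKM in all 4 libraries. Among markers of other cell types, the summed neuron list (6 of 12 genes tested) was at 151 and 131 FPKM in mip120 RNAi, 125 and 122 in mip130 RNAi and 172 and 222 in GFP cells. In the muscle, gut, fat body and ovarian follicle lists at most 1 gene each reached the test. The fat body gene CG15828 (Apoltp), a lipid transfer protein, passed as lower, with 9.19 and 7.71 FPKM in mip120 RNAi, 17.0 and 15.4 in mip130 RNAi and 11.5 and 14.1 in GFP cells (-0.87 ± 0.12, limma adjusted p = 0.013), and did not pass when any of the 4 libraries was left out. The markers sls, betaTry, Cp36 and Vm26Ab were listed at 0 in all 4 libraries. In whole cultures, fewer cells of a type and less RNA per cell cannot be told apart.

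Both targets were lowest in their own RNAi, though to different depths. The mip120 gene (chromosome 2R, start 9393924) had 28.5 and 30.0 FPKM in mip120 RNAi, against 72.2 and 82.2 in mip130 RNAi and 52.5 and 45.7 in GFP cells. Its difference was -1.37 ± 0.10 (limma adjusted p = 0.0024). Summed over isoforms that were not lowered alike, the mip120 libraries held 37.9% of the mip130 RNAi mean and 59.6% of the GFP mean. The mip130 gene (chromosome X, start 1802246) had 42.2 and 42.0 FPKM in mip120 RNAi, against 5.00 and 4.46 in mip130 RNAi and 27.7 and 29.8 in GFP cells. Its difference was 2.91 ± 0.07 (limma adjusted p = 2.4e-05), and the mip130 libraries held 11.2% of the mip120 RNAi mean and 16.4% of the GFP mean. Each mRNA therefore stood above the control where the other was targeted, by 0.64 for mip120 in mip130 RNAi (adjusted p = 0.0048) and by 0.54 for mip130 in mip120 RNAi (adjusted p = 0.0022). Both knockdowns differ in the gene targeted and in how much of its mRNA was left, and for every other gene these cannot be told apart.

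The transcripts of mip120 were not lowered alike. The isoform starting at 9393947 was the only known transcript among those tested for this gene. It had 3.49 and 3.16 FPKM in mip120 RNAi, 20.2 and 18.6 in mip130 RNAi and 12.8 and 12.2 in GFP cells. The difference between the knockdowns was -2.24 (limma adjusted p = 0.0056 over 16220 transcripts). The other tested isoforms were of class j, not known transcripts, and made up the rest of the summed FPKM. The isoform starting at 9393934 had 15.9 and 15.4 FPKM in mip120 RNAi and 42.2 and 54.1 in mip130 RNAi, and did not pass the transcript test (adjusted p = 0.065). The isoform starting at 9393935 had 5.96 and 5.87 FPKM in mip120 RNAi and 5.61 and 6.47 in mip130 RNAi, so its libraries overlapped. So did those of the isoform starting at 9393924, with 3.16 and 5.58 FPKM in mip120 RNAi and 4.18 and 3.08 in mip130 RNAi. FPKM of isoforms that share exons are estimates, and the dsRNA sequence was not used here.

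None of the other 10 dREAM subunit genes passed the test between the knockdowns. E2f2 had 31.0 and 30.4 FPKM in mip120 RNAi and 30.8 and 32.1 in mip130 RNAi, and mip40 had 46.0 and 52.8 in mip120 RNAi and 51.3 and 55.1 in mip130 RNAi. The closest to the threshold was Caf1, the histone-binding subunit shared with other chromatin complexes, with 62.0 and 64.4 FPKM in mip120 RNAi and 73.1 and 73.2 in mip130 RNAi (-0.21 ± 0.05, limma adjusted p = 0.061). Of the genes starting within 5000 bp of either target, EfTuM was the 1 of 5 that passed. It encodes a mitochondrial translation elongation factor, starts 1139 bp from mip120 and had 33.0 and 27.99 FPKM in mip120 RNAi, 50.2 and 50.9 in mip130 RNAi and 92.2 and 83.4 in GFP cells (-0.72 ± 0.09 between the knockdowns, limma adjusted p = 0.0095). Summed over its isoforms, EfTuM was thus below the control in both knockdowns and lower in that of its neighbour. The isoform starting at 9395063 had 18.3 and 15.6 FPKM in mip120 RNAi and 40.1 and 42.9 in mip130 RNAi (-1.24, limma adjusted p = 0.020 over transcripts). The isoform starting at 9395081 went the other way, at 14.6 and 12.4 in mip120 RNAi and 10.1 and 8.05 in mip130 RNAi (0.53), and did not pass (adjusted p = 0.26). The genes drk and mars near mip120, and Edem1 and Rbcn-3B near mip130, did not pass between the knockdowns, with limma adjusted p-values between 0.074 and 0.31. Against GFP, drk, Edem1 and Rbcn-3B were, like EfTuM, lower past the test in both knockdowns, and mars was not. For Rbcn-3B the differences from GFP were -0.77 in mip120 RNAi and -0.57 in mip130 RNAi.

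**Figure D1:**
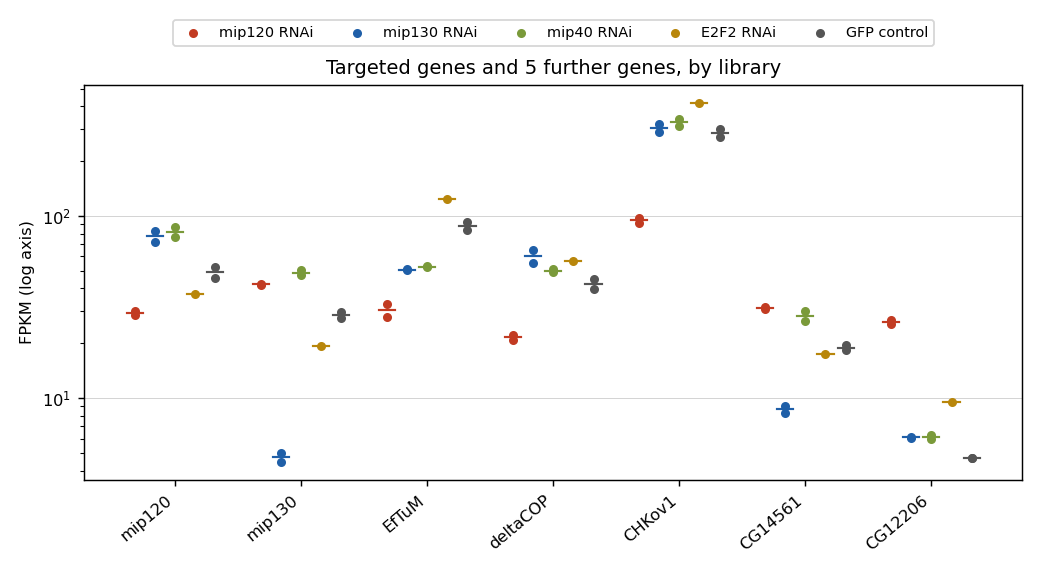
FPKM on a log axis of the targeted genes, the mip120 neighbour EfTuM and 4 further genes in every RNA library, with 1 point per library and a line at the group mean; mip120 RNAi is leftmost, then mip130, mip40 and E2F2 RNAi, and the GFP control rightmost. deltaCOP and CHKov1 were low and CG12206 was high in the 2 mip120 RNAi libraries relative to all 7 other libraries, and CG14561 was lowest in the 2 mip130 RNAi libraries.

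Across the transcriptome, 652 of 7835 tested genes (8.32%) differed, 265 (3.38%) being higher and 387 (4.94%) lower in mip120 RNAi than in mip130 RNAi. Most differences were small, and 26 genes (0.332%) were higher and 35 (0.447%) lower by at least 1 on the log2 scale. These counts depended on each of the 4 libraries. Higher and lower genes numbered 31 and 40 without mip120 replicate 1, 40 and 65 without mip120 replicate 2, 95 and 98 without mip130 replicate 1, and 38 and 41 without mip130 replicate 2; a group with a library left out has 1 library, which is assumed to vary like the other groups. The balance of directions depended on the scaling, since 40.6% of the called genes were higher with the values as deposited, 52.4% with median-ratio scaling and 70.6% (556 higher, 232 lower) when the annotated FPKM of each library were scaled to the same sum, which was chosen after seeing the data. The median difference over all tested genes was -0.04 as deposited and 0.05 with the last scaling.

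**Figure D2:**
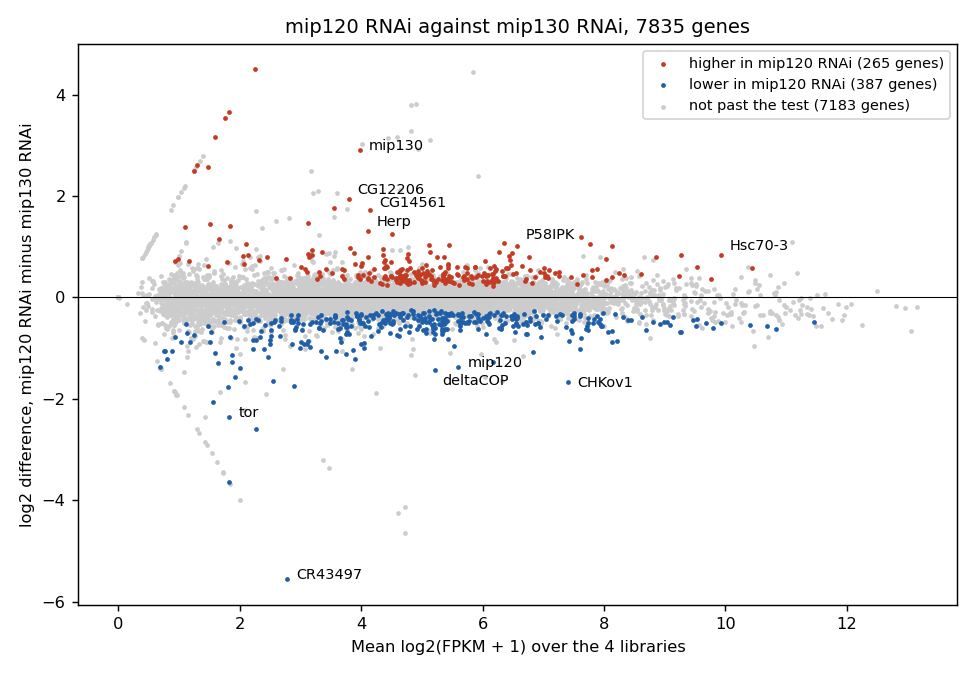
Difference between mip120 RNAi and mip130 RNAi on the log2(FPKM + 1) scale against the mean level over the 4 libraries, with 1 point per tested gene, red for the 265 higher and blue for the 387 lower genes. Most coloured points lie within 1 of 0, and the fans of points at the left hold genes listed at or near 0 in some libraries.

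Set beside GFP cells, which both knockdowns share as their control, the called genes fell into several patterns. Against GFP, 1379 genes (17.6%) were higher and 1478 (18.9%) lower in mip120 RNAi, and 1513 (19.3%) were higher and 1327 (16.9%) lower in mip130 RNAi. Of the 265 genes higher in mip120 than in mip130 RNAi, 181 were above and 5 below GFP in mip120 RNAi, while 77 were above and 72 below GFP in mip130 RNAi. Of the 387 lower genes, 42 were above and 203 below GFP in mip120 RNAi, while 156 were above and 47 below GFP in mip130 RNAi. For 15 genes the knockdowns lay on opposite sides of GFP, both past the test. All 15 also differed directly, which is no separate result, since the direct difference spans both differences from GFP.

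Ranked by the smaller of their 2 differences from GFP, the first 6 were both targets, CG14561, CG18557, deltaCOP and Nrx-1. CG14561 (chromosome 3L, start 22059007), a gene of unknown function, had 30.7 and 31.7 FPKM in mip120 RNAi, 8.33 and 9.06 in mip130 RNAi and 19.5 and 18.4 in GFP cells. It was higher in mip120 than in mip130 RNAi by 1.73 ± 0.08 (limma adjusted p = 0.00025), and its mip40 RNAi libraries, at 30.0 and 26.6 FPKM, were near those of mip120 RNAi. CG18557 had 81.3 and 73.2 FPKM in mip120 RNAi, 156 and 172 in mip130 RNAi and 124 and 107 in GFP cells (-1.08 ± 0.09, adjusted p = 0.0028). Nrx-1, a neurexin of synaptic adhesion, had 5.07 and 4.70 FPKM in mip120 RNAi, 2.33 and 2.30 in mip130 RNAi and 2.99 and 3.89 in GFP cells (0.83 ± 0.13, adjusted p = 0.019). It was only just past the test against GFP, with an adjusted p of 0.044 on either side, and between the knockdowns it did not pass when any of the 4 libraries was left out.

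The gene deltaCOP (chromosome X, start 1755825) encodes a subunit of the COPI coat, which carries proteins from the Golgi back to the endoplasmic reticulum (ER). It had 20.9 and 22.2 FPKM in mip120 RNAi, 55.1 and 64.8 in mip130 RNAi and 45.2 and 39.8 in GFP cells. The difference between the knockdowns was -1.43 ± 0.10 (limma adjusted p = 0.0019), and mip120 RNAi was below GFP by -0.94 while mip130 RNAi was above it by 0.49. None of the other 6 COPI coat genes passed the test, with alphaCop, for example, at 74.9 and 72.9 FPKM in mip120 RNAi and 77.4 and 79.6 in mip130 RNAi. Of the 7 COPI genes deltaCOP was thus the 1 past the test, and it passed in every alternative setting tried. In 4 of the 7 both mip120 libraries lay below both mip130 libraries, beside 36.3% of all genes. Against GFP, 6 of the 7 were higher and 0 lower in mip130 RNAi, and 3 were higher and 1 lower in mip120 RNAi. Over all genes 19.3% and 17.6% were higher, in that order.

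Several genes of protein folding in the ER were higher in mip120 RNAi. When proteins misfold in the ER, the sensors Ire1, PEK and Atf6 raise chaperones, oxidases and the machinery that returns proteins to the cytosol for degradation, the unfolded protein response. Of 27 such genes, 13 were higher, 0 were lower and 14 did not pass, and their median difference was 0.38, beside 3.38% higher and a median of -0.04 over all genes; this list was put together after values were seen, so its count is a description. Leaving out 1 library brought the count of higher genes to 3 without mip120 replicate 1, 4 without mip120 replicate 2, 6 without mip130 replicate 1 and 4 without mip130 replicate 2, while the list's median stayed between 0.35 and 0.39. Against GFP, 19 of the 27 were higher and 1 lower in mip120 RNAi, beside 17.6% and 18.9% of all genes. In mip130 RNAi 8 were higher and 3 lower, beside 19.3% and 16.9%.

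Herp, an ER membrane protein of the degradation machinery, showed the largest difference of the list. It had 24.8 and 27.7 FPKM in mip120 RNAi, 10.1 and 9.95 in mip130 RNAi and 11.4 and 10.99 in GFP cells (1.31 ± 0.11, limma adjusted p = 0.0026). P58IPK, a co-chaperone of the ER lumen, had 135 and 132 FPKM in mip120 RNAi, 62.0 and 69.7 in mip130 RNAi and 76.8 and 73.7 in GFP cells (1.01 ± 0.08, adjusted p = 0.0024). For both genes the mip130 RNAi libraries lay below the GFP libraries, and mip130 RNAi did not differ from GFP past the test. Ero1L, the oxidase that recharges disulfide isomerases, had 102 and 106 FPKM in mip120 RNAi, 57.3 and 53.3 in mip130 RNAi and 44.2 and 42.6 in GFP cells (0.90 ± 0.07, adjusted p = 0.0024). Hsc70-3, the ER chaperone BiP, had 1372 and 1231 FPKM in mip120 RNAi, 735 and 715 in mip130 RNAi and 596 and 657 in GFP cells (0.84 ± 0.10, adjusted p = 0.0071). Herp, P58IPK and Ero1L passed in every alternative setting.

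The other 9 genes that passed were between 0.29 and 0.58 higher. They were Der-1 and Hrd3 of the degradation channel and its ligase complex, Fic, which modifies BiP, the BiP exchange factors Sil1 (CG10420 in the table) and Grp170 (CG2918), the chaperone Gp93, the disulfide isomerase relative CaBP1, and the sensors Ire1 and PEK. Ire1 had 46.7 and 45.8 FPKM in mip120 RNAi, 35.3 and 37.6 in mip130 RNAi and 30.8 and 27.9 in GFP cells (0.33 ± 0.07, limma adjusted p = 0.036). The transcription factors of the response showed smaller differences that did not pass. Xbp1 had 355 and 321 FPKM in mip120 RNAi and 327 and 302 in mip130 RNAi, and Atf6 had 16.64 and 16.03 in mip120 RNAi and 14.7 and 17.9 in mip130 RNAi. The disulfide isomerase Pdi had 328 and 359 FPKM in mip120 RNAi and 334 and 352 in mip130 RNAi, so not every ER chaperone differed.

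**Figure D3:**
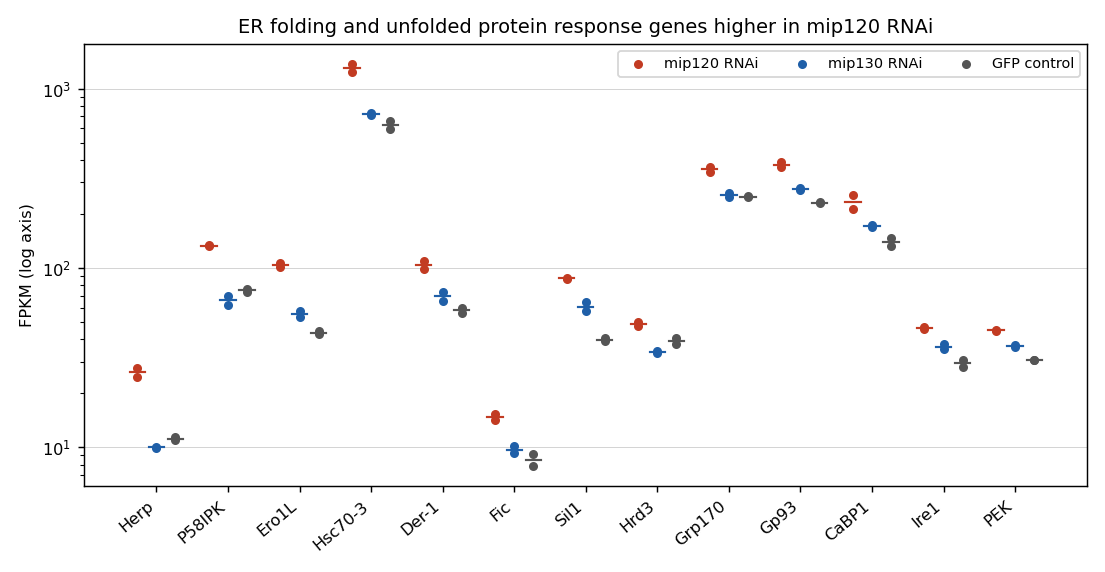
FPKM on a log axis of the 13 ER folding genes that were higher in mip120 RNAi, with 1 point per library, lines at group means, and mip120 RNAi, mip130 RNAi and the GFP control from left to right within each gene. In every gene both mip120 RNAi points lie above both mip130 RNAi points and both GFP points.

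Vesicles with a COPII coat carry proteins out of the ER. Of 10 genes of the COPII coat and of the SNARE proteins that fuse its vesicles with the Golgi, a list also chosen after values were seen, 5 were higher and 0 lower, beside 3.38% and 4.94% of all genes, with a median difference of 0.36. Syx5, a Golgi SNARE, had 105 and 106 FPKM in mip120 RNAi and 73.5 and 78.0 in mip130 RNAi (0.47 ± 0.06, limma adjusted p = 0.0097). Sec22, Bet1, sec24 and sar1 were 0.41 to 0.54 higher, while sec31, a coat subunit, had 39.5 and 38.3 FPKM in mip120 RNAi and 37.5 and 39.5 in mip130 RNAi. The count was 1 without mip120 replicate 2 and 0 without mip120 replicate 1, mip130 replicate 1 or mip130 replicate 2.

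Several glycolytic enzymes were also higher. Of 12 tested, 5 were higher and 0 lower, beside 3.38% and 4.94% of all genes, with a median difference of 0.20. ImpL3, the lactate dehydrogenase, had 807 and 848 FPKM in mip120 RNAi, 499 and 427 in mip130 RNAi and 255 and 272 in GFP cells (0.84 ± 0.12, limma adjusted p = 0.013). It was above GFP in both knockdowns, by 1.65 in mip120 RNAi and 0.81 in mip130 RNAi. Ald, the aldolase, had 280 and 289 FPKM in mip120 RNAi, 191 and 196 in mip130 RNAi and 138 and 139 in GFP cells (0.55 ± 0.05, adjusted p = 0.0042), and passed in every alternative setting. Hex-A, Pfk and Tpi, a hexokinase, phosphofructokinase and triose phosphate isomerase, were 0.76, 0.49 and 0.48 higher. The later enzymes Eno and PyK overlapped between the knockdowns, with PyK at 314 and 329 FPKM in mip120 RNAi and 311 and 325 in mip130 RNAi. The count of 5 was 1 without mip120 replicate 1, 2 without mip120 replicate 2, 3 without mip130 replicate 1 and 1 without mip130 replicate 2.

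Of 18 aminoacyl-tRNA synthetases, the enzymes that charge tRNAs, 3 were higher and 0 lower, beside 3.38% and 4.94% of all genes. In 14 of the 18 both mip120 libraries lay above both mip130 libraries, beside 26.5% of all genes. The median was 0.21. The histidine enzyme Aats-his had 130 and 133 FPKM in mip120 RNAi, 90.8 and 88.4 in mip130 RNAi and 92.3 and 85.3 in GFP cells (0.55 ± 0.06, limma adjusted p = 0.0077), and Aats-trp and Aats-asp were 0.39 and 0.34 higher. The count was 1 without mip130 replicate 1 and 0 without any other of the 4 libraries, whereas it was 10 with the annotated sum scaling. Thor, the translation inhibitor 4E-BP, had 127 and 121 FPKM in mip120 RNAi, 82.0 and 77.9 in mip130 RNAi and 38.2 and 32.2 in GFP cells (0.63 ± 0.11, adjusted p = 0.026). ImpL2, a secreted insulin-binding protein, was 0.58 higher. Thor and ImpL2 were the only genes that passed of 18 in the insulin and TOR list, 11.1% beside 3.38% higher of all genes. Of 14 heat shock genes 2 were higher, beside 3.38% of all genes. They were Hsc70-3, already counted in the ER list, and the small mitochondrial chaperone Hsp22. Hsp22 had 111 and 126 FPKM in mip120 RNAi, 60.0 and 50.9 in mip130 RNAi and 29.4 and 35.1 in GFP cells.

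Some respiratory chain genes were lower in mip120 RNAi. Of 67 tested subunits of the electron transport complexes and the ATP synthase, 16 were lower, 0 were higher and 51 did not pass, with a median difference of -0.31, beside 4.94% lower over all genes. In 46 of the 67 both mip120 libraries lay below both mip130 libraries, beside 36.3% of all genes. The count of 16 was 1 without mip120 replicate 1, 6 without mip120 replicate 2, 3 without mip130 replicate 1 and 0 without mip130 replicate 2, while the median stayed between -0.33 and -0.25. Against GFP, 9 of the 67 were higher and 16 lower in mip120 RNAi, beside 17.6% and 18.9% of all genes. In mip130 RNAi 19 were higher and 3 lower, beside 19.3% and 16.9%.

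The largest of these differences was in ATPsynF (CG4692 in the table), an ATP synthase subunit with 190 and 255 FPKM in mip120 RNAi, 375 and 429 in mip130 RNAi and 222 and 193 in GFP cells (-0.86 ± 0.16, limma adjusted p = 0.026). ND-18 (CG12203), a complex I subunit, had 57.6 and 54.9 FPKM in mip120 RNAi, 80.1 and 82.5 in mip130 RNAi and 71.5 and 69.1 in GFP cells (-0.52 ± 0.06, adjusted p = 0.0051), and was below GFP in mip120 RNAi and above it in mip130 RNAi. Another ATP synthase subunit, ATPsyndelta (l(1)G0230), had 165 and 170 FPKM in mip120 RNAi, 243 and 273 in mip130 RNAi and 57.6 and 53.01 in GFP cells. Each of these genes thus stood differently to the control, ATPsyndelta being above GFP in both knockdowns.

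**Figure D4:**
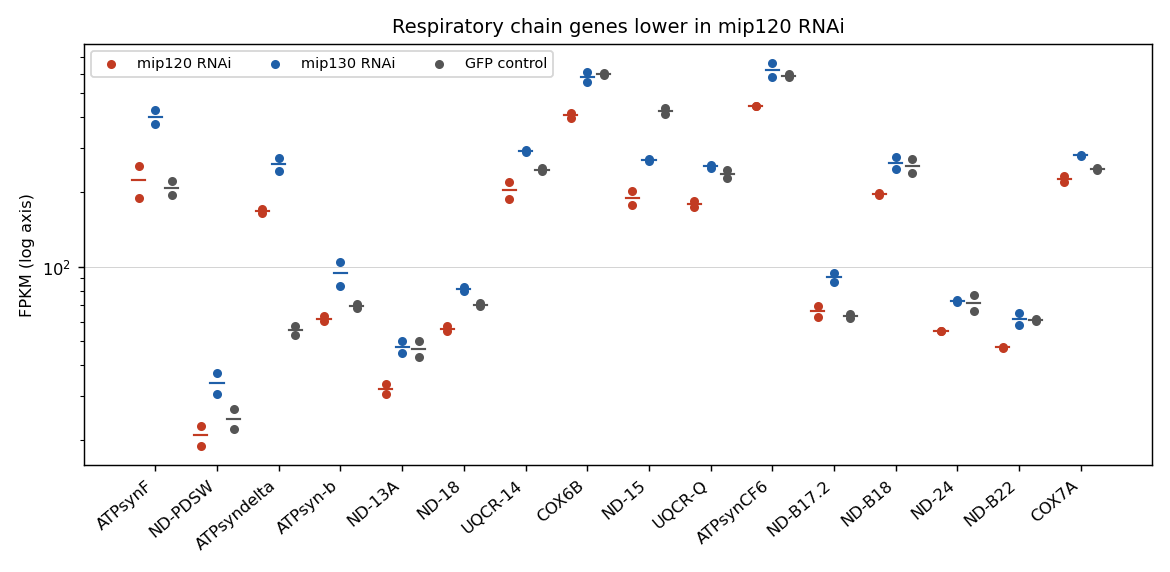
FPKM on a log axis of the 16 respiratory chain genes that were lower in mip120 RNAi, with 1 point per library, lines at group means, and mip120 RNAi, mip130 RNAi and the GFP control from left to right within each gene. In every gene both mip120 RNAi points lie below both mip130 RNAi points, and the place of the GFP points varies.

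Among other mitochondrial and degradative genes, the lists chosen after values were seen gave 6 of 11 fatty acid oxidation genes lower (median -0.31) and 9 of 17 lysosomal genes lower (median -0.40), with 0 higher in either, beside 4.94% lower of all genes. Fatty acid oxidation had 0 lower when any of the 4 libraries was left out. In all 17 lysosomal genes both mip120 libraries lay below both mip130 libraries, beside 36.3% of all genes. The cathepsin CtsB1 had 39.3 and 40.3 FPKM in mip120 RNAi, 57.9 and 60.4 in mip130 RNAi and 54.0 and 51.7 in GFP cells (-0.56 ± 0.06, limma adjusted p = 0.0043), and passed in every alternative setting. The mannosidase LM408 had 3.62 and 3.24 FPKM in mip120 RNAi, 5.28 and 5.70 in mip130 RNAi and 11.1 and 10.0 in GFP cells, and so was below the control in both. The lysosomal count of 9 was 1 without mip120 replicate 1, 3 without mip120 replicate 2, 2 without mip130 replicate 1 and 1 without mip130 replicate 2. In the citric acid cycle list of 11, Idh and the pyruvate carboxylase PCB (CG1516) were lower by -1.02 and -0.87, and the citrate synthase kdn was 0.54 higher.

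Few cytosolic ribosomal protein genes passed the test. Of 86 tested, 6 were lower, a share of 6.98% that is near the 4.94% of all genes, and that count was 0 when any of the 4 libraries was left out. A difference below 0 was found in 83 of the 86, both mip120 libraries lay below both mip130 libraries in 74, beside 36.3% of all genes, and the median was -0.33. Their summed FPKM were 121734 and 136367 in mip120 RNAi, 162027 and 166132 in mip130 RNAi and 128180 and 115535 in GFP cells. RpS4, for example, had 674 and 758 FPKM in mip120 RNAi and 999.98 and 1188 in mip130 RNAi (-0.61 ± 0.14, limma adjusted p = 0.046). Against GFP, 10 were higher in mip120 RNAi and 58 in mip130 RNAi, beside 17.6% and 19.3% of all genes, with 0 lower in either. The median was -0.20 with quantile normalization and -0.24 with the annotated sum scaling. Mitochondrial ribosomal proteins had 3 of 73 lower, a share of 4.11% near that of all genes.

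Of 42 DNA replication genes 6 were lower and 0 higher, beside 4.94% and 3.38% of all genes, with a median of -0.18. The clamp PCNA (mus209) had 197 and 217 FPKM in mip120 RNAi, 257 and 275 in mip130 RNAi and 200 and 193 in GFP cells (-0.36 ± 0.07, limma adjusted p = 0.030), so that the mip120 libraries were near the control. The primase subunit DNApol-alpha50 had 10.5 and 10.0 FPKM in mip120 RNAi, 14.7 and 15.8 in mip130 RNAi and 11.1 and 10.6 in GFP cells (-0.52 ± 0.07, adjusted p = 0.011). Their number was 1 without mip130 replicate 1 and 0 without any other of the 4. Of 55 genes of G2 and mitosis, a group in which Myb and its partners are known activators, the checkpoint kinase BubR1 and the condensin subunit CAP-D2 were lower by -0.33 each, a share of 3.64% that is below that of all genes. Proteasome genes had 4 of 34 lower, by -0.42 to -0.50, and the count was 0 when any of the 4 libraries was left out.

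Germline genes, which dREAM represses in somatic cells, were more often above than below the control in both knockdowns, and some differed between them. Of 34 germ cell and piRNA pathway genes tested, 16 were above and 7 below GFP in mip120 RNAi, beside 17.6% and 18.9% of all genes. In mip130 RNAi 20 were above and 4 below GFP, beside 19.3% and 16.9%. Directly compared, 6 were lower and 1 higher in mip120 than in mip130 RNAi, beside 4.94% and 3.38% of all genes. The translational repressor nos had 10.7 and 10.9 FPKM in mip120 RNAi, 21.4 and 23.6 in mip130 RNAi and 0.334 and 0.357 in GFP cells (-0.99 ± 0.11, limma adjusted p = 0.0053). The differentiation factor bam had 6.30 and 6.56 FPKM in mip120 RNAi, 9.31 and 10.1 in mip130 RNAi and 1.43 in each GFP library (-0.53 ± 0.09, adjusted p = 0.025). For both genes the mip120 libraries lay between GFP and mip130 RNAi. Piwi had 12.6 FPKM in each mip120 library, 17.2 and 19.2 in the mip130 libraries and 0.585 and 0.612 in the GFP libraries (-0.50, adjusted p = 0.024). The piRNA cluster factor cuff had 5.27 and 5.66 FPKM in mip120 RNAi, 10.8 and 10.6 in mip130 RNAi and 4.47 and 4.43 in GFP cells (-0.86 ± 0.09, adjusted p = 0.0047).

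Pxt and krimp were also lower, by -0.88 and -0.30, and the piRNA co-chaperone shu was the gene that was higher, by 0.23. Pxt reached 1 FPKM only in the mip130 libraries and was tested only through them. It did not pass when 0.1 in place of 1 was added to FPKM. Other germline genes raised over GFP did not pass between the knockdowns, such as vas, at 2.43 and 1.68 FPKM in mip120 RNAi and 1.90 and 2.55 in mip130 RNAi, and zpg, at 3.81 and 4.68 in mip120 RNAi and 7.31 and 6.96 in mip130 RNAi (adjusted p = 0.056). The germline count of 6 was 0 without mip120 replicate 1, 2 without mip120 replicate 2, 2 without mip130 replicate 1 and 1 without mip130 replicate 2. Among meiotic recombination genes cona, a synaptonemal complex protein, had 3.81 and 4.46 FPKM in mip120 RNAi, 6.69 and 6.54 in mip130 RNAi and 0.183 and 0.332 in GFP cells (-0.57 ± 0.12, limma adjusted p = 0.039). It was the only 1 of 19 to pass, beside 4.94% lower of all genes. The testis actin relative Arp53D had 19.9 and 24.0 FPKM in mip120 RNAi and 12.5 and 11.8 in mip130 RNAi (0.80 ± 0.12, adjusted p = 0.015) and was listed at 0 in GFP cells. Its direction turned round when known transcripts alone were summed, to -2.10, so no direction can be given for it. Taf12L, a testis form of a general transcription factor subunit, had 0.189 and 0.093 FPKM in mip120 RNAi and 1.60 and 1.69 in mip130 RNAi. It too was tested only through the mip130 libraries.

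In the blood cell list 6 of 17 tested genes were lower and 0 higher, beside 4.94% lower and 3.38% higher of all genes, with a median of -0.25, and 5 of the 6 encode collagen IV or laminin chains. LanB1, a laminin chain, had 44.3 FPKM in each mip120 library, 63.3 and 63.0 in mip130 RNAi and 57.0 and 61.2 in GFP cells (-0.50 ± 0.06, limma adjusted p = 0.0079). Cg25C, the collagen IV chain, had 10.4 and 9.84 FPKM in mip120 RNAi, 15.2 and 16.1 in mip130 RNAi and 18.5 and 21.7 in GFP cells (-0.58 ± 0.09, adjusted p = 0.021). LanA, LanB2 and vkg were lower by -0.56, -0.43 and -0.49, and the other was the growth factor Pvf2. The blood cell factors srp and ush did not pass. The count was 2 without mip130 replicate 1 and 0 without any other of the 4 libraries. Of 15 cytoskeletal genes 4 were lower (beside 4.94% of all genes), and the only other one past the test was Arp53D, for which no direction can be given. Among the lower ones alphaTub84B, betaTub56D and the stathmin stai differed by -0.54, -0.56 and -0.62, all 3 being below GFP in mip120 RNAi.

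Of 6 chitinase-like growth factor genes, a list chosen after values were seen, 4 were lower, beside 4.94% of all genes. Among the lower ones, Idgf1, Idgf2 and Idgf3 start close together on chromosome 2L, at 16445280, 16447338 and 16450907. Idgf3 had 95.8 and 93.6 FPKM in mip120 RNAi, 158 and 168 in mip130 RNAi and 146 and 132 in GFP cells (-0.78 ± 0.07, limma adjusted p = 0.0030), and passed in every alternative setting. In the Toll and Imd list PGRP-SA, a bacterial recognition protein, had 4.94 and 5.71 FPKM in mip120 RNAi and 10.6 and 11.2 in mip130 RNAi (-0.92 ± 0.15, adjusted p = 0.022). The receptor Tl was lower by -0.47, and these were the 2 lower genes out of 17, beside 4.94% of all genes. Hexim, the inhibitor of the elongation kinase P-TEFb, was far below the control in both knockdowns, with 1.32 and 1.24 FPKM in mip120 RNAi, 2.52 and 2.25 in mip130 RNAi and 20.7 and 19.9 in GFP cells. The difference between the knockdowns was -0.57 ± 0.08 (adjusted p = 0.012).

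In the vacuolar proton pump, ecdysone, insulator, histone and neuron lists, 0 members passed in limma. In that order, 6 of 20, 2 of 11, 2 of 14, 5 of 14 and 1 of 6 had an unadjusted p under 0.05, beside 2288 of all 7835 genes. Single genes passed in 4 others, by 0.29 to 0.37 higher, beside 3.38% higher of all genes. They were CycD, a G1 cyclin (1 of 15 in its list), and the Dicer-2 partner r2d2 (1 of 11). The others were the stress-response factor Xrp1 (1 of 16) and the chromatin remodeller Iswi (1 of 32, a share of 3.13% near that of all genes). The CCT chaperonin list, chosen after values were seen, had 3 of 8 lower and 0 when any of the 4 libraries was left out. The translation factors had 2 higher and 1 lower of 43, and over all genes 3.38% were higher and 4.94% lower. In every list whose count without a library is not given above, the number past the test in a direction was at most 1 when any of the 4 libraries was left out, except for 2 heat shock genes and 2 chitinase-like growth factors without mip130 replicate 1.

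**Figure D5:**
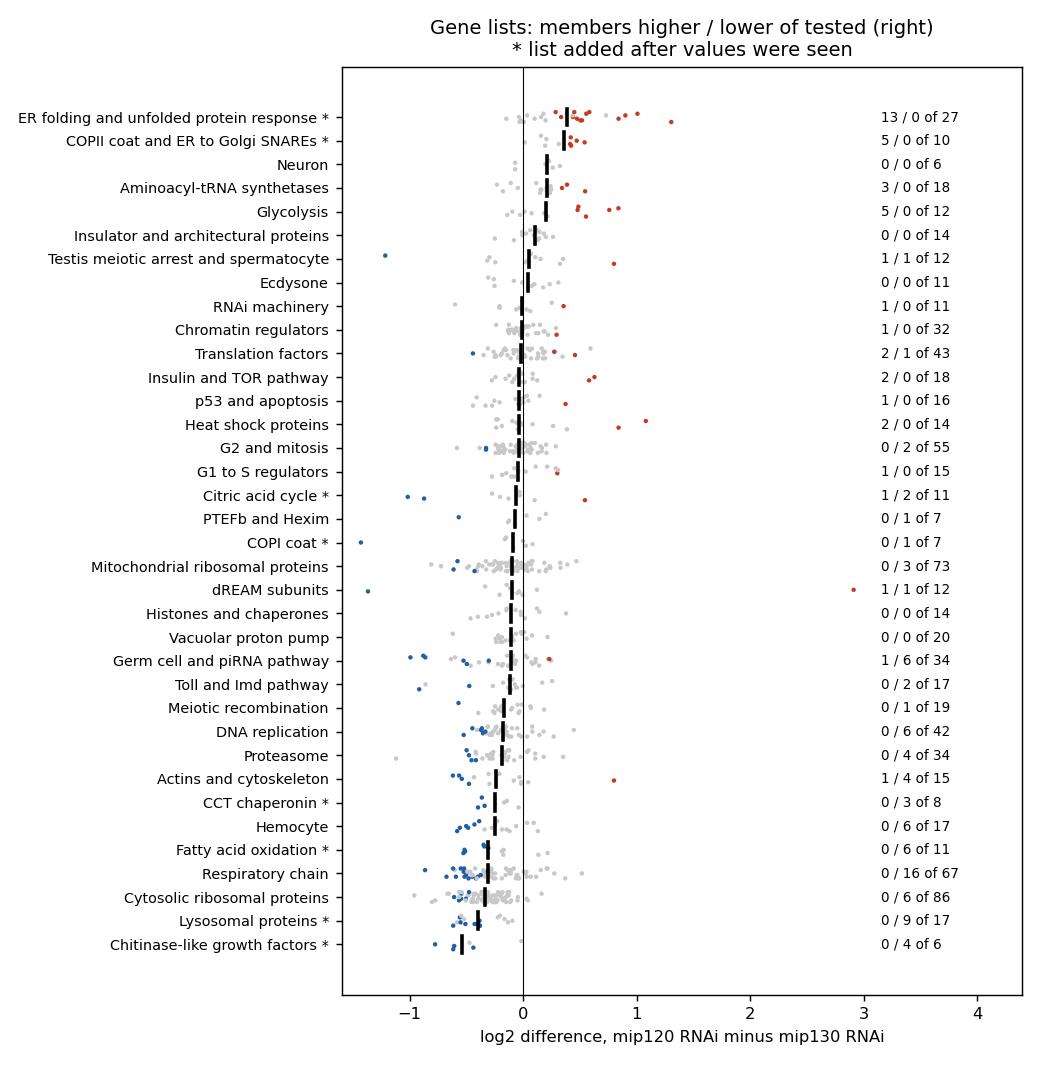
Difference between mip120 RNAi and mip130 RNAi on the log2(FPKM + 1) scale for the tested members of each gene list with at least 5 of them, with 1 point per gene (red higher, blue lower, grey not past the test), a black bar at the list's median and the counts at the right. ER folding genes have the highest median, 0.38, and the chitinase-like growth factors the lowest, -0.54, both lists chosen after values were seen.

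The single genes with the largest differences were mostly of other kinds. CHKov1 (chromosome 3R), a choline kinase relative known for alleles that resist sigma virus, had 92.0 and 97.3 FPKM in mip120 RNAi, 288 and 318 in mip130 RNAi and 270 and 300 in GFP cells (-1.67 ± 0.09, limma adjusted p = 0.00049). Every library other than the 2 of mip120 RNAi was at or above the 270 FPKM of the lowest GFP library. CG12206 had 25.7 and 26.7 FPKM in mip120 RNAi, 6.14 and 6.02 in mip130 RNAi and 4.71 and 4.69 in GFP cells (1.94 ± 0.07, adjusted p = 9e-05). The antisense RNA CR43944 had 17.8 and 23.9 FPKM in mip120 RNAi, 4.75 and 6.11 in mip130 RNAi and 6.41 and 6.05 in GFP cells; strand use is not given, so its reads and those of its partner cannot be told apart. For all 3 genes mip130 RNAi stood much nearer to GFP than mip120 RNAi did.

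Other genes were high mainly in mip130 RNAi. The receptor tyrosine kinase tor (chromosome 2R, start 3596696) is known from the patterning of the embryo's ends. It had 0.488 and 0.654 FPKM in mip120 RNAi, 7.52 and 6.55 in mip130 RNAi and 0 and 0.056 in GFP cells (-2.35 ± 0.14, limma adjusted p = 0.0013). CG9406 had 1.93 and 2.76 FPKM in mip120 RNAi, 8.75 and 10.0 in mip130 RNAi and 0.115 and 0.104 in GFP cells (-1.64 ± 0.16, adjusted p = 0.0040). CG1941 (chromosome 2R, start 3597379) had 0.828 and 0.947 FPKM in mip120 RNAi, 5.48 and 5.35 in mip130 RNAi and 0.387 and 0.404 in GFP cells (-1.77 ± 0.14, adjusted p = 0.0026). Its start is close to that of tor, and whether both genes share reads was not tested. Genes were tested if at least 2 of 9 libraries had at least 1 FPKM. Without the mip130 libraries tor and CG1941 would not have been tested, so their p-values are no separate support for a high level there. Rh4, an ultraviolet rhodopsin, and CG14312 showed the same order at 4.96 to 6.10 FPKM in mip130 RNAi and 0.622 to 1.99 FPKM in mip120 RNAi.

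Several of the largest differences rest on values at or near 0. CR43497, whose current symbol is CG32700, was listed at 0 in both mip120 libraries, with 38.6 and 54.8 FPKM in mip130 RNAi and 32.9 and 10.4 in GFP cells. It was also at 0 in the mip40 and E2F2 libraries. Small RNA genes made up 6 of the 12 largest higher genes. Of the 174 small RNA genes tested, 6 were higher (3.45%) and 1 lower (0.575%), beside 3.38% and 4.94% of all genes. For example, mir-87 had 11.1 and 10.0 FPKM in mip120 RNAi and was listed at 0 in the 7 other libraries. Conversely snoRNA:Me28S-U1230 had 7.74 and 16.6 FPKM in mip130 RNAi and was at 0 in all other libraries, mip120 RNAi included. Both mir-87 and this snoRNA were tested only through the group in which they were high. RNA was selected by its poly(A) tail, which most such RNAs lack. Of the remaining largest genes, CG42308, CG43189, Dtd (CG18643) and CG42259 had replicates that differed widely, with CG43189 at 2.81 and 0 FPKM in mip120 RNAi and 10.8 in each mip130 library. CG12717 had 14.2 and 12.8 FPKM in mip120 RNAi and 5.68 and 3.13 in mip130 RNAi.

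Among single transcripts, 35 (0.216%) were higher and 35 (0.216%) lower of 16220, and 49 of these 70 belong to genes that also passed at the gene level. No gene had a transcript called higher and another called lower, although 226 genes did at an unadjusted p under 0.05. One transcript of CYLD, a deubiquitinase chosen after its values were seen, had 12.2 and 12.3 FPKM in mip120 RNAi, 0.0052 and 0 in mip130 RNAi and 9.64 and 15.4 in GFP cells. The number of transcripts that passed was 29 without mip120 replicate 1, 8 without mip120 replicate 2, 32 without mip130 replicate 1 and 2 without mip130 replicate 2.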

How the data were processed

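Per the labels' protocols, poly(A) RNA of S2R+ cells was taken with oligo-dT and read as 100 bp pairs. Cuffnorm, Cufflinks, TopHat2 2.0.12 and Bowtie 1.1.1 appear in the submitters' processing notes. The build, annotation, settings and strand use are not given in those notes. The authors deposited FPKM for 37161 transcripts, and their columns of group means were not used. FPKM of classes =, j and o were summed per gene symbol, and gene starts are those in the table. Genes with at least 1 FPKM in at least 2 of 9 libraries were tested with limma 3.58.1 (R 4.3.3) on log2(FPKM + 1), in 1 model of 5 groups with an intensity trend; this scale understates differences of low genes. Alternatives changed the pseudocount, filter, scaling, transcript classes, trend and libraries.

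Named were the dREAM subunits, the 12 largest differences in each direction without overlap between libraries, up to 4 past the test per list, genes starting within 5000 bp of a target, and the 6 largest opposite to GFP. Other genes named were chosen after their values were seen. The comparison and all lists were chosen with earlier results of these data known, and lists were not tested as sets. Promoter motifs were planned and not analysed here. The code was tested on simulated data.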

Additional observations from a re-analysis of the deposited data

How the results depend on the processing

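Of the 127 named genes past the test, 23 passed in each of the 24 settings in which they were tested, mip120, mip130, deltaCOP, Herp and CHKov1 among them, and 75 passed in none of the 4 fits that left out a mip120 or mip130 library, which have fewer samples. Leaving out 1 of any library gave 31 to 267 genes higher, 40 to 393 lower and, for transcripts, 2 to 32 that differed. Higher genes numbered 401 with median-ratio scaling and 405 with quantile normalization; the cause was not tested. Scaling to the annotated sum, chosen after seeing the data, gave 556 higher and 232 lower, and leaving out small RNA genes, likewise chosen, gave 354 higher and 586 lower. Without a filter 228 were lower (12457 genes tested), and a fit of the 4 libraries alone, which has fewer samples, gave 72 higher and 83 lower. Arp53D reversed to -2.10 with known transcripts only. The labels do not say what a replicate number marks. Over all genes together, the deviations of same-numbered libraries correlated between -0.13 and 0.02 over 6 pairs of groups. Whether some genes share a culture or day effect was not tested. With the replicate block 104 genes were higher, 107 lower and 17 transcripts differed. FPKM give no depth, so counting error could not be given, and 2 libraries per group limit the precision.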
